A study of Mus musculus with 9 samples.

Results

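The genes described here are the Wnt ligands and R-spondins, their receptors and co-receptors, the secreted antagonists, and the intracellular regulators and feedback targets of the pathway, in mouse preosteoblasts exposed to low-intensity pulsed ultrasound (LIPUS). Members were chosen by gene symbol from a list of 47 genes, by a rule that uses no measured values. The list was drawn up with earlier results of these data known. Of the 47 genes, 46 had a probe set that the array annotation assigns to that symbol alone, out of 18193 genes with such a probe set. *Tcf7* was not analysed here. The list was divided into 12 ligands and R-spondins, 13 receptors and co-receptors, 7 secreted antagonists, 9 intracellular regulators and 6 feedback genes and targets, of which 5 were measured. The 46 genes had 106 probe sets in all, and each gene is given by the probe set with the highest mean signal over the 9 arrays.

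MC3T3-E1 is an established line of fibroblast-like preosteoblasts, grown from the skull vault of newborn C57BL/6 mice, so every culture is of a single genotype and the line stands for osteoblast precursors in culture rather than for bone. All cells were first kept for 14 days with ascorbic acid and beta-glycerophosphate and were then reseeded. The groups were LIPUS 24 h and LIPUS 6 h, which received LIPUS at 30 mW/cm2 and 1.5 MHz for 20 min followed by 24 h or 6 h of further culture, and mock control, which was handled without ultrasound. Each group had 3 arrays, numbered 1 to 3 for 3 repeated experiments. The time for which the mock control was cultured is not given in the sources used here, so LIPUS and time in culture cannot be told apart in any comparison with it. LIPUS 24 h and LIPUS 6 h differ in the time of culture after exposure, and no mock arrays are labelled for each time. Their comparison cannot tell LIPUS and time in culture apart either.

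Wnt proteins are secreted ligands that bind Frizzled receptors together with the co-receptors Lrp5 and Lrp6, which stops the destruction complex built on Axin, Apc and Gsk3b from degrading beta-catenin. Beta-catenin then joins the Tcf and Lef factors on DNA and raises targets that include several inhibitors of the pathway itself. In osteoblast lineage cells this signalling favours bone formation, and secreted antagonists such as the Dickkopf proteins and the secreted Frizzled-related proteins restrain it.

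Signals are log2 values per probe set, on which a difference of 1 is a doubling. A change was called by limma, a linear model fitted over all probe sets with the experiment as a block, at a Benjamini-Hochberg adjusted p under 0.05 over 45037 probe sets. At 24 h, 3 of the 46 members were higher than in mock control and 0 were lower. The 3 were *Dkk2*, *Sfrp2* and *Dact1*, which encode inhibitors or modulators of Wnt signalling. Over all probe sets 1.8% were called higher and 0.933% lower at 24 h. Among probe sets with a mean signal at or above the median of all (4.99), where 37 of the 46 members lay, 3.52% were called higher. At 6 h 0 of 46 members were called against mock control, with 4 at an unadjusted p under 0.05, and of all probe sets 0% were called and 3.5% had an unadjusted p under 0.05.

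The region around the start site is shown for the 3 genes that changed, because Tcf and Lef factors bind DNA through a short core. Their promoters were read from a RefSeq table on build GRCm38.p6, which held 34 of the 47 listed genes, from 250 bases before to 50 bases after the start. The cores CTTTGA and CTTTGT were searched on both strands, do not overlap one another, and are in capitals. *Dkk2* lies at chr3:132085042-132085341, *Sfrp2* at chr3:83766071-83766370 and *Dact1* at chr12:71309634-71309933, all on the plus strand.
Dkk2: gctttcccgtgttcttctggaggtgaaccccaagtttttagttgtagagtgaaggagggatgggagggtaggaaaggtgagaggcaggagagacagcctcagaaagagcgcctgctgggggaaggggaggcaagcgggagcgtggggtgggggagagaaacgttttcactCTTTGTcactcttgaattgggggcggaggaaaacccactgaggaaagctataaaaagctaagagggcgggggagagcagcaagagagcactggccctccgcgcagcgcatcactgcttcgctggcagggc
Sfrp2: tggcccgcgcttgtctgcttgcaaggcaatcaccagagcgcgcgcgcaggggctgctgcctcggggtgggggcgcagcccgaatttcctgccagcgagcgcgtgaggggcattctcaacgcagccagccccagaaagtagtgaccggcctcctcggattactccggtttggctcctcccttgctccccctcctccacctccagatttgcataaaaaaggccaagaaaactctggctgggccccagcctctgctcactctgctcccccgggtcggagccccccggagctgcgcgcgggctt
Dact1: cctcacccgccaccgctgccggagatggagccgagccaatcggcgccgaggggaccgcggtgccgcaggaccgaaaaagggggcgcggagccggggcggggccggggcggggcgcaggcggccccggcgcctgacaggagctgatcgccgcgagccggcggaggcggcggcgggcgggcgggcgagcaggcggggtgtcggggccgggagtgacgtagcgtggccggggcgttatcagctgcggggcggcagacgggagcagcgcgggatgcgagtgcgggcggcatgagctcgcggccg

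The window of *Dkk2* held 1 core, CTTTGT on the plus strand, at positions -80 to -75 from the start. The windows of *Sfrp2* and *Dact1* held 0. Of all 32851 promoters in the table, 16% held CTTTGA, 18.7% held CTTTGT and 31.2% held either, so the match in *Dkk2* is a common one. The windows differ in base composition, with 57.7% G and C in *Dkk2*, 66.0% in *Sfrp2* and 79.7% in *Dact1*, against a median of 52.7% over all promoters.

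*Dkk2* encodes a secreted Dickkopf protein that binds the Lrp5 and Lrp6 co-receptors. Its log2 signals were 6.92, 7.17 and 6.64 at LIPUS 24 h, 6.44, 6.59 and 5.91 at LIPUS 6 h, and 6.41, 6.56 and 5.83 in mock control, in experiments 1, 2 and 3. The 24 h arrays all lay above the control arrays, which 0.901% of all probe sets did, and *Dkk2* was the 1 member that did so. The log2 difference at 24 h was 0.64 (standard error 0.0625, 95% interval 0.50 to 0.79, adjusted p = 0.00428 from limma). At 6 h the difference from control was 0.05 (interval -0.10 to 0.19, adjusted p = 0.960 from limma). As a ratio within each experiment, *Dkk2* stood at 1.57 ± 0.166 times control at 24 h and 1.03 ± 0.0186 times at 6 h (SD, n = 3 experiments).

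*Sfrp2* encodes a secreted protein with a Frizzled-like domain that binds Wnt proteins outside the cell. Its log2 signals were 11.14, 11.17 and 10.86 at LIPUS 24 h, 10.81, 10.96 and 10.67 at LIPUS 6 h, and 10.82, 10.92 and 10.67 in mock control. The array of experiment 3 was the lowest of each group, so the groups overlapped, while within each experiment the 24 h array was the highest. The log2 difference at 24 h was 0.25 (standard error 0.0316, 95% interval 0.18 to 0.33, adjusted p = 0.00988 from limma), a ratio of 1.19 ± 0.052 (SD, n = 3 experiments). At 6 h it was 0.01 (interval -0.06 to 0.09, adjusted p = 0.976 from limma).

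*Dact1* encodes a cytoplasmic protein that binds Dishevelled, the adaptor between Frizzled and the destruction complex. Its log2 signals were 8.51, 8.54 and 7.90 at LIPUS 24 h, 7.84, 7.99 and 7.44 at LIPUS 6 h, and 7.75, 7.99 and 7.37 in mock control. Experiment 3 again gave the lowest array of each group, the groups overlapped through it, and the 24 h array was the highest of every experiment. The log2 difference at 24 h was 0.61 (standard error 0.0522, 95% interval 0.49 to 0.73, adjusted p = 0.00243 from limma), a ratio of 1.53 ± 0.135 (SD, n = 3 experiments). At 6 h it was 0.05 (interval -0.07 to 0.17, adjusted p = 0.959 from limma). *Dact1* is among the genes that the study selected on these arrays for their rise, so its place in the count is not independent evidence.

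**Figure D1:**
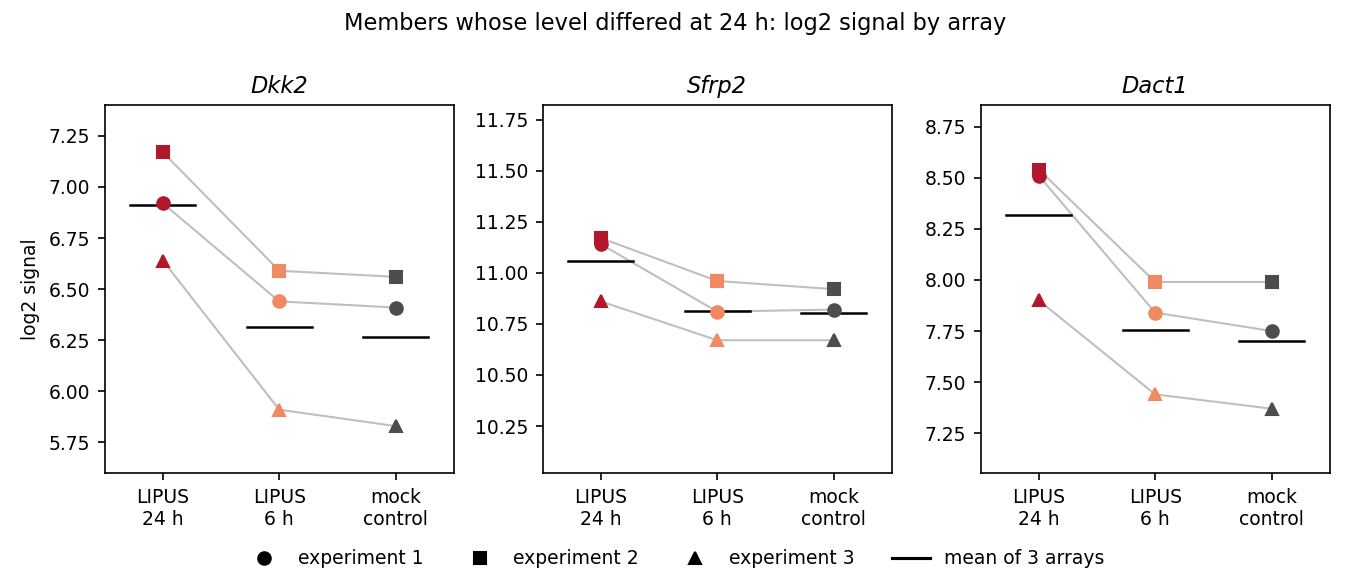
Log2 signal of *Dkk2*, *Sfrp2* and *Dact1* on each of the 9 arrays, with LIPUS 24 h, LIPUS 6 h and mock control from left to right, marker shapes for the 3 experiments, grey lines joining arrays of 1 experiment and black bars for the mean of 3 arrays. Each gene is higher at 24 h in every experiment, while the 6 h arrays lie within 0.08 of the control of their own experiment.

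The same 3 members were higher at 24 h than at 6 h, and 0 were lower, where 1.14% of all probe sets were called higher and 0.879% lower. The log2 difference between 24 h and 6 h was 0.60 for *Dkk2* (95% interval 0.45 to 0.75, adjusted p = 0.00619 from limma), 0.24 for *Sfrp2* (0.17 to 0.32, adjusted p = 0.0138) and 0.56 for *Dact1* (0.44 to 0.68, adjusted p = 0.00398). This comparison shares its 24 h arrays with the comparison against control, so both draw on the same treated cells. It also sets 24 h of culture against 6 h, so LIPUS and time in culture cannot be told apart in it. The array carries only 1 probe set with the symbol of each of these genes, so none of the 3 was measured at a second place in its transcript.

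The calls depended on the pairing and on which experiments were in the fit, for these members and over all probe sets. In both comparisons that involve 24 h, 0 members were called when the replicate block, experiment 1 or experiment 2 was left out, against 3 without experiment 3. Of all probe sets 1, 0, 49 and 1439 were called in these 4 fits at 24 h against control, and 1229 in the main fit. At 24 h against 6 h the 4 fits called 0, 0, 44 and 1498, and the main fit 909. Leaving out the control array of experiment 1 left *Dact1* alone at 24 h against control, where 200 of all probe sets were called. Leaving out the 6 h array of experiment 1 left 0 members, and that of experiment 2 left *Dact1* alone, in the comparison of 24 h with 6 h. Of all probe sets 71 and 235 were called in those fits. *Sfrp2* was the least stable of the 3, since at 24 h against control it was also not called without the intensity trend or without the 24 h or the control array of experiment 2, and at 24 h against 6 h without the trend, the control array of experiment 1, the 24 h array of experiment 1 or 2, or any 6 h array. With only the 6 arrays of the 2 groups compared, 0 members were called in either of these comparisons, where 5 and 8 of all probe sets were. Over all 22 alternative fits the difference at 24 h against control was 0.56 to 0.71 for *Dkk2*, 0.22 to 0.29 for *Sfrp2* and 0.54 to 0.65 for *Dact1*. Several of these fits leave the difference unchanged by design, and each gene was above control in every experiment. The sign was therefore not put to a test.

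The ligands and R-spondins showed no called change. Their median log2 difference at 24 h was -0.07 and their range -0.30 to 0.35, with medians of -0.16, 0 and 0 in experiments 1, 2 and 3. *Rspo2*, whose protein binds Lgr receptors and keeps Frizzled on the cell surface, was the ligand gene whose probe set gave the highest signal, though signals of different probe sets do not rank their transcripts. It had 9.53, 9.68 and 9.39 at LIPUS 24 h, 9.63, 9.77 and 9.39 at LIPUS 6 h, and 9.63, 9.76 and 9.38 in mock control. These arrays differed between experiments more than between groups, and the difference at 24 h was -0.06 (95% interval -0.13 to 0.02, adjusted p = 0.528 from limma).

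*Rspo3*, which encodes a related R-spondin, had the most positive value of the ligand list, and it was uneven across experiments. Its signals were 8.12, 8.28 and 8.03 at LIPUS 24 h, 8.10, 8.12 and 7.53 at LIPUS 6 h, and 8.11, 8.01 and 7.25 in mock control. The log2 differences from control at 24 h were thus 0.01, 0.27 and 0.77, and their mean of 0.35 was not called (limma, adjusted p = 0.291). *Wnt2b*, a ligand gene with a signal below the median of all probe sets, stood at the other end with 3.40, 4.19 and 3.47 at LIPUS 24 h and 3.83, 4.19 and 3.93 in mock control, a difference of -0.30 (adjusted p = 0.244 from limma).

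*Wnt5a*, which encodes a ligand of the Ror receptors, had differences of -0.29, 0 and 0.22 in the 3 experiments at 24 h and a mean of -0.02 (adjusted p = 0.948 from limma). Its 3 further probe sets stood between -0.13 and 0.12. The signals of *Wnt2*, *Wnt2b*, *Wnt11* and *Wnt16* lay below the median of all probe sets. At 6 h the ligand differences ran from -0.17 for *Wnt2b* to 0.20 for *Wnt5b* (adjusted p = 0.959 or above from limma for each).

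The receptors and co-receptors showed no called change at 24 h. Their differences ran from -0.10 to 0.28 with a median of 0.03, all 13 had signals above the median of all probe sets, and 11 had a 95% interval at 24 h that lay wholly within a 1.2-fold change in either direction. At 24 h 6 of the 13 had the same value as control in experiment 2 and 4 in experiment 3, which can narrow such intervals. *Fzd2*, a Frizzled receptor gene with the highest signal of the role at its probe set, gave 10.24, 10.38 and 9.84 at LIPUS 24 h, 10.01, 10.30 and 9.75 at LIPUS 6 h, and 10.03, 10.30 and 9.78 in mock control. It was higher at 24 h in 3 of 3 experiments, by 0.21, 0.08 and 0.07, and the mean of 0.12 did not pass (95% interval 0.03 to 0.20, adjusted p = 0.209 from limma). Its 2 further probe sets gave 0.08 and 0.09.

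*Ror1* and *Ror2* encode receptor tyrosine kinases that bind Wnt5a, and *Lrp5* and *Lrp6* the co-receptors of the beta-catenin branch. *Ror1* differed from control at 24 h by 0.02, 0.15 and 0.37 in the 3 experiments (mean 0.18, adjusted p = 0.326 from limma). *Ror2* differed by 0.03, 0.05 and 0.75 (mean 0.28, adjusted p = 0.461 from limma), so that for *Rspo3*, *Ror1* and *Ror2* experiment 3 gave the highest of the 3 differences. *Lrp5* stood at 0.01 (95% interval -0.13 to 0.16) and *Lrp6* at -0.02 (-0.11 to 0.07).

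Of the 7 secreted antagonists, 2 were called and 5 were not. *Dkk3*, a divergent Dickkopf relative, had signals of 10.75, 11 and 10.55 at LIPUS 24 h and 10.71, 10.87 and 10.52 in mock control, and the difference of 0.06 did not pass (adjusted p = 0.456 from limma). *Sfrp1*, which encodes the closest relative of *Sfrp2* on the list, gave 0.14, -0.31 and -0.31 in the 3 experiments (mean -0.16, adjusted p = 0.608 from limma), and its 4 further probe sets -0.21 to -0.02. *Wif1*, which encodes another Wnt-binding protein, had the lowest value of all members at -0.36, with 3.07, 3.60 and 3.37 at LIPUS 24 h and 4.01, 3.78 and 3.33 in mock control (adjusted p = 0.477 from limma). Experiment 1 alone gave -0.94 for *Wif1*, and its signals, with those of *Dkk1* and *Frzb*, lay below the median of all probe sets.

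**Figure D2:**
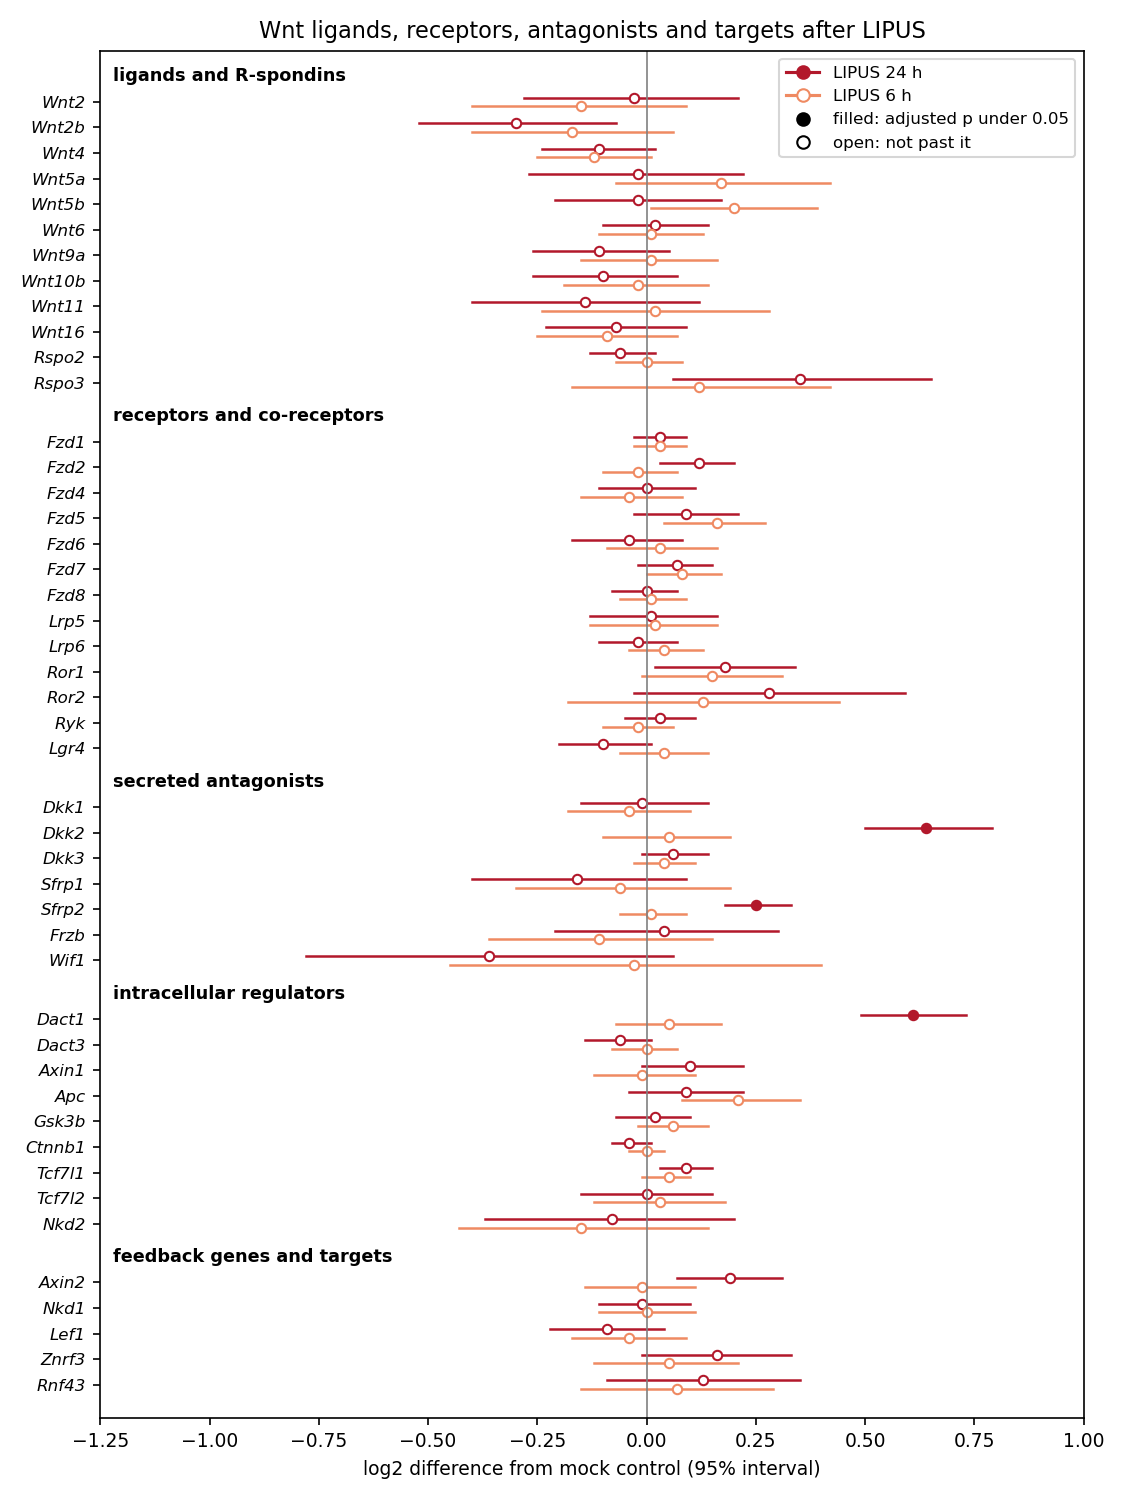
Log2 difference from mock control of the 46 measured members, grouped by role, with LIPUS 24 h above LIPUS 6 h for each gene, points for the fitted difference and lines for the 95% interval. Filled points passed an adjusted p under 0.05, which *Dkk2*, *Sfrp2* and *Dact1* did at 24 h and 0 members did at 6 h.

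The intracellular regulators other than *Dact1* stayed close to the control. *Ctnnb1*, which encodes beta-catenin, gave 13.28, 13.33 and 12.96 at LIPUS 24 h, 13.34, 13.33 and 13.00 at LIPUS 6 h, and 13.34, 13.33 and 13.00 in mock control. Its difference at 24 h was -0.04 (95% interval -0.08 to 0.01, adjusted p = 0.478 from limma). It was below control in 3 of 3 experiments by at most 0.06, and in experiment 2 by a difference that rounds to 0. *Dact3*, a relative of *Dact1*, had -0.03, -0.08 and -0.07 (mean -0.06, adjusted p = 0.508 from limma).

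In the destruction complex, *Axin1* stood at 0.10 (95% interval -0.01 to 0.22), *Apc* at 0.09 (-0.04 to 0.22) and *Gsk3b* at 0.02 (-0.07 to 0.10) at 24 h. *Apc* had the highest 6 h value of all members, with 0.12, 0.30 and 0.23 in the 3 experiments (mean 0.21, adjusted p = 0.959 from limma). *Tcf7l1*, which encodes a Tcf factor that mainly represses targets, was above control at 24 h in 3 of 3 experiments by 0.12, 0.11 and 0.05, and this did not pass (mean 0.09, adjusted p = 0.144 from limma). *Tcf7l2*, which encodes another Tcf factor, stood at 0.00 (95% interval -0.15 to 0.15).

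The feedback genes and targets, which beta-catenin signalling raises in many cells, held 0 called genes of 5 measured. *Axin2*, a scaffold of the destruction complex and a common readout of the pathway, gave 7.04, 7.45 and 6.84 at LIPUS 24 h, 6.83, 7.13 and 6.75 at LIPUS 6 h, and 6.83, 7.18 and 6.75 in mock control. It was higher at 24 h in 3 of 3 experiments, by 0.21, 0.27 and 0.09, but the mean of 0.19 did not pass (95% interval 0.07 to 0.31, adjusted p = 0.147 from limma). A second probe set of *Axin2*, with a mean signal of 2.93, stood at -0.04. In the comparison of 24 h with 6 h, *Axin2* had 0.20 (adjusted p = 0.145 from limma) and was called in 1 of the 22 alternative fits, the one without the 24 h array of experiment 3.

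*Znrf3* encodes a ubiquitin ligase that removes Frizzled from the cell surface, and its probe set had the highest signal of this role. Its values were 7.51, 8.02 and 7.37 at LIPUS 24 h, 7.55, 7.81 and 7.20 at LIPUS 6 h, and 7.52, 7.88 and 7.02 in mock control, and the groups overlapped. The difference at 24 h was 0.16 (95% interval -0.01 to 0.33, adjusted p = 0.417 from limma). *Rnf43*, its relative, stood at 0.13, *Lef1*, a partner of beta-catenin on DNA, at -0.09 and *Nkd1*, which binds Dishevelled, at -0.01, and none of these passed.

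**Figure D3:**
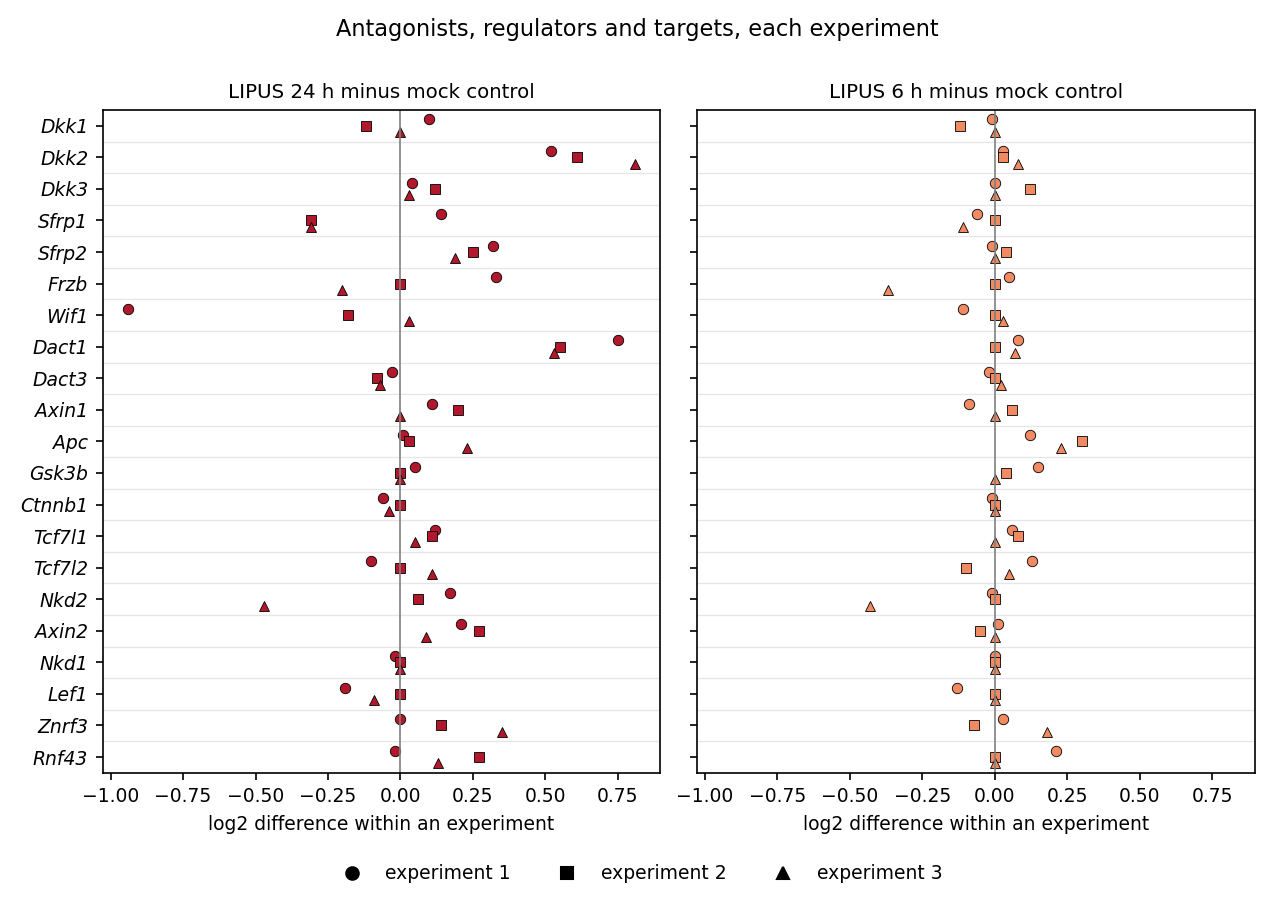
Log2 difference from the mock control of the same experiment for the secreted antagonists, intracellular regulators and feedback genes, at LIPUS 24 h (left) and LIPUS 6 h (right), with 1 point for each of the 3 experiments. At 24 h the points of *Dkk2* lie at 0.52 to 0.81, those of *Dact1* at 0.53 to 0.75 and those of *Sfrp2* at 0.19 to 0.32, while those of most other genes lie on both sides of 0 or at it.

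Over the 46 members the median log2 difference was 0 at 24 h and 0.01 at 6 h, against 0 and 0 over all probe sets. At 24 h, 12 members were above control in all 3 experiments, where 10.3% of all probe sets and 18.9% of those at or above the median signal were. Besides the called genes these were *Rspo3*, *Fzd2*, *Fzd7*, *Ror1*, *Ror2*, *Dkk3*, *Apc*, *Tcf7l1* and *Axin2*. The 2 members below control in all 3 experiments were *Dact3* and *Ctnnb1*, where 6.84% of all probe sets were. For *Ctnnb1* the difference in experiment 2 rounds to 0. At 6 h, 6 members were above control in all 3 experiments and 0 below, where 6.48% and 4.24% of all probe sets were.

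Of the 43 members that were not called at 24 h, 40 had a 95% interval wholly within a 1.5-fold change and 29 within a 1.2-fold change. At 24 h 9 of the 46 members had the same value as control in both experiments 2 and 3, which can narrow these intervals. *Rspo3*, *Ror2* and *Wif1* were the 3 whose interval reached 1.5-fold. By a size rule, a ratio of at least 1.5 in each of the 3 experiments on the deposited signals, 0 members were higher and 0 lower at 24 h and 0 at 6 h, where 0.0955%, 0.0355% and 0% of all probe sets were. *Dact1*, with log2 ratios of 0.75, 0.55 and 0.53 in experiments 1, 2 and 3, passed 1.5 in experiment 1 alone. The study made its own selection by size in GeneSpring, on values that were not used here. At a ratio of 1.2 the rule took *Dkk2* and *Dact1* as higher at 24 h, and it took 0.837% of all probe sets as higher and 0.309% as lower. None of the 60 further probe sets of the members was called at 24 h (smallest adjusted p = 0.260 from limma).

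The pathway was also followed through 81 measured genes of a further list of 82, drawn up by role with earlier results of these data known. At 24 h 7 of these were higher and 3 lower than in mock control, and at 6 h 0 were called. Over all probe sets 1.8% were called higher and 0.933% lower at 24 h, and among those at or above the median signal 3.52% and 1.86%. *Kremen2* was not analysed here. By role, 0 of 13 ligands and secretion genes and 0 of 12 receptors were called, 1 of 7 secreted antagonists was lower, 4 of 33 intracellular regulators were higher, and of 16 broad targets 3 were higher and 2 lower. The median over the 81 genes was 0 at 24 h and 0 at 6 h. *Id2* and *Sostdc1* are genes that the study selected on these arrays for their fall, so their calls are not independent evidence.

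Among the intracellular regulators, *Prickle1*, a gene of the planar cell polarity branch, had signals of 7.89, 8.14 and 7.81 at LIPUS 24 h, 7.52, 7.78 and 7.38 at LIPUS 6 h, and 7.41, 7.60 and 7.30 in mock control. All 24 h arrays lay above all control arrays, and the difference was 0.51 (standard error 0.0362, adjusted p = 0.00123 from limma). Further probe sets of *Prickle1* stood at 0.04 and -0.03 and were not called. *Tle2*, *Tle3* and *Tle4* encode Groucho-type co-repressors that bind Tcf factors. At their main probe sets they rose by 0.31, 0.16 and 0.35 at 24 h (adjusted p = 0.0133, 0.0316 and 0.0313 from limma), in 3 of 3 experiments each. The further probe sets of *Tle3* gave 0.23, 0.08 and -0.03, those of *Tle4* gave -0.09 and 0, and none was called. *Tle2* had only 1 probe set.

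Among the broad targets, *Tnfrsf19*, which encodes a receptor of the tumour necrosis factor family, gave 7.02, 7.74 and 7.74 at LIPUS 24 h, 6.44, 7.13 and 6.91 at LIPUS 6 h, and 6.43, 6.97 and 6.61 in mock control. It rose by 0.83 (adjusted p = 0.00608 from limma), with 0.59, 0.77 and 1.12 in the 3 experiments. Further probe sets of *Tnfrsf19* stood at -0.05 and 0.14 and were not called. *Myc*, which encodes a growth-promoting transcription factor, gave 9.16, 9.65 and 9.22 at LIPUS 24 h, 8.70, 9.12 and 8.62 at LIPUS 6 h, and 8.63, 9.0 and 8.59 in mock control. All its 24 h arrays lay above all control arrays, and it rose by 0.60 (adjusted p = 0.000731 from limma). *Cd44*, a hyaluronan receptor gene, rose by 0.16 (adjusted p = 0.0321 from limma), while its further probe sets stood at 0.07, 0.03 and -0.06 and were not called.

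The lower genes were *Id2*, *Sostdc1* and *Jun*. *Id2*, which encodes an inhibitor of helix-loop-helix factors, had 8.69, 9.09 and 8.43 at LIPUS 24 h, 9.86, 10.03 and 9.29 at LIPUS 6 h, and 9.99, 10.19 and 9.12 in mock control, a difference of -1.03 (adjusted p = 0.00457 from limma). *Sostdc1*, which encodes a secreted inhibitor of bone morphogenetic proteins and of Wnt signalling, had 8.44, 8.82 and 8.59 at LIPUS 24 h, 9.13, 9.34 and 9.03 at LIPUS 6 h, and 9.16, 9.46 and 9.02 in mock control, a difference of -0.60 (adjusted p = 0.00444 from limma). All 24 h arrays of *Id2* and of *Sostdc1* lay below all of their control arrays, which 0.568% of all probe sets did. *Jun*, which encodes a subunit of the AP-1 factor, differed by -0.20 (adjusted p = 0.0443 from limma), and its second probe set stood at -0.1 and was not called. Secreted inhibitors stood on both sides of the control, with *Dkk2* and *Sfrp2* higher and *Sostdc1* lower.

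**Figure D4:**
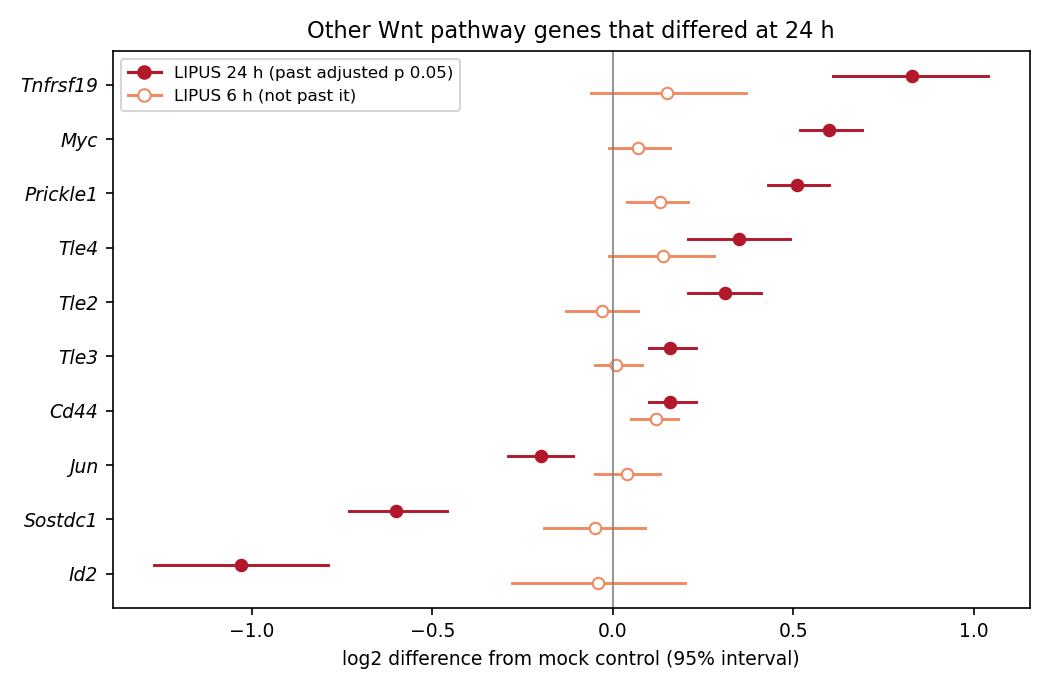
Log2 difference from mock control of the 10 further Wnt pathway genes called at 24 h, with LIPUS 24 h above LIPUS 6 h for each gene, points for the fitted difference and lines for the 95% interval. The differences at 24 h run from 0.83 for *Tnfrsf19* to -1.03 for *Id2*, and none of the 10 was called at 6 h.

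Other probe sets of this further list were called at 24 h against mock control in 4 cases. Second probe sets of *Sostdc1* and *Id2* gave -0.63 and -0.96 (adjusted p = 0.00425 and 0.00115 from limma), near the values above. A second probe set of *Daam1*, which encodes an actin regulator of the polarity branch, stood at 0.60 (adjusted p = 0.00105) while its main one was not called, and one of *Wls*, which carries Wnt proteins to the cell surface, at 0.17 (adjusted p = 0.0478). Between LIPUS 24 h and LIPUS 6 h a second probe set of *Ccn4*, which encodes a matricellular protein, was also called, at 0.14 (adjusted p = 0.0428 from limma). The count of 10 was 0 in fits that left out the block, experiment 1 or experiment 2, 0 with only the 6 arrays compared, and 3 without the control array of experiment 1. Of all probe sets 1, 0, 49, 5 and 200 were called in these fits. *Tle3*, *Cd44*, *Jun* and *Tle4* were the least stable, called in 2, 3, 4 and 5 of 22 alternative fits. With all probe sets of a gene averaged, *Prickle1*, *Tnfrsf19*, *Tle3*, *Tle4* and *Cd44* had 0.18, 0.31, 0.11, 0.09 and 0.05 and were not called.

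Several features of the arrays bear on these values. Median log2 signals were 4.93 to 5.15 at LIPUS 24 h, 4.90 to 5.15 at LIPUS 6 h and 4.89 to 5.15 in mock control. In experiments 2 and 3 many values were identical between the 24 h and control arrays to the last digit given, for 48.4% and 31.9% of all probe sets against 1.26% in experiment 1. Among the members 19, 11 and 0 were tied in this way in experiments 2, 3 and 1, and *Dkk2*, *Sfrp2* and *Dact1* were not among them. A tied value gives a difference of 0, and how the ties arose is not given in the sources used here. Of 10 osteoblast lineage markers 7 were measured, and the collagen genes *Col1a1* (12.43 to 12.95 on the 9 arrays) and *Col1a2* (14.01 to 14.29) were strong, whereas *Ibsp* (2.73 to 4.10), a gene of mineralising bone, lay below the median of all probe sets. Some markers of other cell types also moved at 24 h. Of 6 epithelial markers *Krt14* and *Cdh1* were lower and 4 were not called. The summed linear signal of all 6 was 690 to 884 at LIPUS 24 h, 1120 to 1350 at LIPUS 6 h and 1120 to 1360 in mock control. *Krt14*, *Col2a1* and *Lyz2* had the highest mean signal of their lists, so they weigh most in the sums given here. Of 5 cartilage markers *Col2a1* was lower and 4 were not called. The summed signal of the 5 was 1040 to 1510 at LIPUS 24 h, 1480 to 2170 at LIPUS 6 h and 1530 to 2040 in mock control. Of 4 blood cell markers *Lyz2* was higher and 3 were not called. The summed signal of these 4 was 160 to 221 at LIPUS 24 h, 138 to 169 at LIPUS 6 h and 135 to 159 in mock control. *Ptprc*, which defines white blood cells, stood at 2.70 to 3.08. The part of these markers in the results above was not tested, and in such bulk RNA fewer cells of a type and less RNA per cell cannot be told apart.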

How the data were processed

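Biotin-labelled cRNA, synthesized from total RNA, was run by the authors on whole-genome Affymetrix mouse arrays, and the deposited values are log2 signals that the authors made with the RMA method, per the labels. The version and settings of RMA are not given in the sources used here. The 64 control probe sets of 45101 were dropped. The platform annotation gave the symbols, and 34945 probe sets had 1 symbol, 932 several and 9160 none, and probe sets of the first kind alone were named. Differences were fitted with limma 3.58.1 in R 4.3.3 (lmFit, then eBayes with the trend option), using the 9 arrays together and a fixed term for the experiment, with 4 residual and 3.00 prior degrees of freedom.

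The replicate numbers pair the arrays. Deviations from group means had correlations of 0.701 to 0.933 for arrays sharing a number (9 pairs) and -0.674 to 0.00916 for different numbers (18 pairs). Deviations from a group mean cancel within the group. The low values for different numbers therefore follow in part from the high values for shared ones. The number of arrays limits the precision. A limma p-value sets a difference against the spread between these arrays that remains after the experiment term. That spread is drawn toward the spread of other probe sets. The members, lists and rules were chosen with earlier results of these data known. Array values are given for called members and the member of highest signal in each role, and further pathway genes are named where called at 24 h, and *Rspo3*, *Wnt2b*, *Dkk3*, *Wif1* and *Axin2* were added after their values were seen, as were *Daam1*, *Wls* and *Ccn4*. Alternatives changed the block, the trend, the scaling, the probe sets, the test and the arrays.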

Additional observations from a re-analysis of the deposited data

Results flagged for a closer look

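For genes called at 24 h against control, the difference at 24 h was set against that at 6 h through the comparison of 24 h with 6 h. In it 11 genes passed (limma, adjusted p under 0.05). They were 3 of the 46 members, all higher, and of the 81 further genes 5 higher and 3 lower. Of all probe sets 1.14% were called higher and 0.879% lower. The 2 comparisons share the 24 h arrays, so the second call is not independent of the first. Among the members the log2 difference between 24 h and 6 h was 0.60 for *Dkk2*, 0.24 for *Sfrp2* and 0.56 for *Dact1*. Among the further pathway genes it was 0.67 for *Tnfrsf19*, 0.53 for *Myc*, 0.39 for *Prickle1*, 0.34 for *Tle2* and 0.15 for *Tle3*, and on the lower side -0.99 for *Id2*, -0.55 for *Sostdc1* and -0.24 for *Jun*. Over 22 alternative settings *Tle3* was called in 3, *Jun* in 8, *Sfrp2* in 9, *Tnfrsf19* in 10 and *Tle2* in 11, and with all probe sets of a gene averaged *Prickle1*, *Tnfrsf19* and *Tle3* had 0.15, 0.30 and 0.06 and were not called. *Tle4* and *Cd44* were called at 24 h against control but not against 6 h, at 0.21 and 0.04 (adjusted p = 0.195 and 0.692 from limma). None of the members or of these genes lay on opposite sides of the control at 24 h and 6 h in all 3 experiments. Without mock arrays for each time, LIPUS and time in culture cannot be told apart in these differences.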

How the results depend on the processing

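At 24 h against control the count of 3 members became 0 without the replicate block (smallest adjusted p = 1 from limma). It was also 0 by an unpaired t-test after adjustment (0 also at its unadjusted threshold), 0 by a paired t-test, and 0 with only the 2 groups compared. Of all probe sets 1, 0, 0 and 5 were called under these 4 alternatives. The unpaired t-test was run on log2 signals. The study instead reported ratios to control and marked that of *Dact1* at 24 h as significant by Student's t-test. The count for 24 h against 6 h was 0 under the same 4 alternatives, where 0, 0, 0 and 8 of all probe sets were called. Leaving out 1 experiment or 1 array gave 0 to 3 members at 24 h against control and 0 to 4 at 24 h against 6 h. Of all probe sets 0 to 1439 and 0 to 1498 were called in these fits. The count at 6 h was 0 under all 22 alternatives. The count of 10 further pathway genes became 0 without the block, by either t-test and with only the 2 groups compared, and 6 without the intensity trend. It was 6 with probe sets averaged, of which 5 were among the 10 and the other was *Daam1*. With an experiment or array left out it was 0 to 8, and the fits with 8 held 7 of the 10 and *Lgr6*. The size rule took 2 members at a ratio of 1.2 and 0 at 1.5. *Dkk2* passed at 24 h in 15 of 22 alternatives, *Sfrp2* in 12 and *Dact1* in 16. Quantile normalization and median centring moved the median of all probe sets by under 0.1 on the log2 scale. The weakest signals, 9 of 46 members below the median of all probe sets, limit what can be seen for several Wnt ligands and for *Wif1*, *Dkk1* and *Frzb*.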
